A study of Mus musculus with 10 samples.

Results

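The regions next to centromeres were the 2473 CUT&RUN regions that end at or below 5 Mb on the mouse autosomes, chromosome 4 left out. They made up 1.64% of the 151133 regions in which reads had been counted, and they lay on 18 chromosomes. They were chosen by position alone and were set against the 4849 regions that lie between 5 and 10 Mb on the same chromosomes. The assay had mapped IKZF2 (Helios), a DNA-binding protein with zinc fingers that is related to Ikaros, in RN2 cells, a C57BL/6 mouse leukaemia carrying MLL-AF9 and NRASG12D. All samples came from RN2 cells that a retrovirus had given murine IKZF2 and RFP, and that had been sorted and kept in culture for 2 weeks afterwards. Overexpressed and endogenous IKZF2 cannot be told apart in these values. In CUT&RUN, a nuclease fused to protein A is brought by an antibody to the bound protein, where it cuts out DNA fragments for sequencing. The anti-IKZF2 antibody was used in 6 samples, which are 3 libraries with 2 technical replicates each. A control rabbit antibody was used in 4 further samples, which were not analysed here, so no value below is corrected for antibody background. Whether the 3 libraries are separate cultures is not stated in the labels, so SDs and p-values here may measure technical spread only.

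Mouse autosomes are acrocentric. The centromere lies at one end, flanked by long arrays of satellite repeats that are packed as heterochromatin and are not part of the assembled chromosome sequence. The assembly begins after a placeholder for these arrays, so the first assembled megabases are the assembled sequence nearest to the satellites. How much of that sequence is repeated was not examined here. Ikaros family proteins are known from lymphocytes to gather at the heterochromatin around centromeres, and they act there and at promoters with chromatin remodelling complexes. The satellite arrays themselves lie outside the windows studied here, so binding to the satellites was not tested.

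The genome sequence of the regions was not used here, and sequence is therefore shown only where a region next to a centromere covered a promoter of the RefSeq table for GRCm38.p6. Among 613 promoters of the table in these windows, 133 promoters of 119 genes overlapped a region by at least 30 bases. The 5 promoters below carry high regions at gene starts that are described later, and they are shown so that the covered bases can be read beside those values. Each runs 5′ to 3′ along its gene, from 250 bases before the start to 50 after it. Capitals mark the stretch that the deposited region covers. The stretch may be off by 1 base at its lower coordinate, because it is not stated whether region starts count from 0 or from 1.
Rps9 promoter, chr7:3703791-3704090, plus strand: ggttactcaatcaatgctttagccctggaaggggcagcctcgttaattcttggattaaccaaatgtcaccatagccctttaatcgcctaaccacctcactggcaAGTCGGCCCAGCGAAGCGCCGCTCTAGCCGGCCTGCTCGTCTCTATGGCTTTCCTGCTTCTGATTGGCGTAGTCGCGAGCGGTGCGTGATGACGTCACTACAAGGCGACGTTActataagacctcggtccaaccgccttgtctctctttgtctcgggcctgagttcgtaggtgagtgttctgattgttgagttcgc
Nf2 promoter, chr11:4849495-4849794, minus strand: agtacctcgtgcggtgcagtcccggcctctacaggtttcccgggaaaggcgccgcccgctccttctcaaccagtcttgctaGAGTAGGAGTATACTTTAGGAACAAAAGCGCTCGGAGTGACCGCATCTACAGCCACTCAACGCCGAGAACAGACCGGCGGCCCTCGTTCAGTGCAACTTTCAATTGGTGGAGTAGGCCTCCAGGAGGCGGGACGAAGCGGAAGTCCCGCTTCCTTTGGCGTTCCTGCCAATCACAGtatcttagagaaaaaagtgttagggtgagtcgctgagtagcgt
Cnot3 promoter, chr7:3645019-3645318, plus strand: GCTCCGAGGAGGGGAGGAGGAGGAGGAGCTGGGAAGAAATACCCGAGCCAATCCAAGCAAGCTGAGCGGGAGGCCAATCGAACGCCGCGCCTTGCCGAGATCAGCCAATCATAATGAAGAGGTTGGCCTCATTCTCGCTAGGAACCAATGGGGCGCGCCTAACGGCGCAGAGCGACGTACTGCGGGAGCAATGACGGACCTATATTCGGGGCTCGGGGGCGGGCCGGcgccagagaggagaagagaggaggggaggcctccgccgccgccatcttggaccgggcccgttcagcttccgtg
Tfb1m promoter, chr17:3557706-3558005, minus strand: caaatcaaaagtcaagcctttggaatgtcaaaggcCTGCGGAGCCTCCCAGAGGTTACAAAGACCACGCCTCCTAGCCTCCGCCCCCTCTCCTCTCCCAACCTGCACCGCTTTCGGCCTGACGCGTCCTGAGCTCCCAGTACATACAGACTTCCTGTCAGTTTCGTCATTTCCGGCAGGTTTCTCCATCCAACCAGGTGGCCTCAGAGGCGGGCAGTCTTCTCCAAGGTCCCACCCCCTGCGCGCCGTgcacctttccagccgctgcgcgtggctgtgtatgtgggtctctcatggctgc
Sf3b6 promoter, chr12:4817358-4817657, plus strand: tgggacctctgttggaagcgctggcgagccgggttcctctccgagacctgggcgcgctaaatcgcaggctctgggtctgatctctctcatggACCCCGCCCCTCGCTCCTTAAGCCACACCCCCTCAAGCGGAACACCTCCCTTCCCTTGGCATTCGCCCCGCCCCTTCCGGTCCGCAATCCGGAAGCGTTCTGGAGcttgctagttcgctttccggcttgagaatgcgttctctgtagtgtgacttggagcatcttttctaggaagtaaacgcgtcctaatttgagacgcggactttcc
The capitals cover 113 bases in Rps9, 176 in Nf2, 227 in Cnot3, 213 in Tfb1m and 105 in Sf3b6. The promoters overlapped by a region had a median of 18 CG dinucleotides and 59.0% G plus C. The medians were 9 and 54.7% over the 613 promoters in the windows, and 7 and 52.7% over all 32851 promoters of the table. The core motif of Ikaros proteins was searched as TGGGAA on both strands. It stood in 33 of the 133 overlapped promoters (24.8%), in 147 of the 613 promoters in the windows (24.0%) and in 8397 of all 32851 (25.6%), so these shares were near that of all promoters. Among the 11 that overlapped a region high in all 3 libraries (in the top 10% of each) it stood in 5. Of the 5 promoters shown, Cnot3 held it, inside the capitals, and the other 4 did not hold these letters.

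The regions were narrow. Their median width was 110 bp, against 108 bp at 5 to 10 Mb, and they ranged over 90 to 511 bp. A width of 200 bp or more was found in 241 of 2473 (9.75%), against 399 of 4849 (8.23%) at 5 to 10 Mb. Counts were low, with a median of 31 reads per region over all 6 samples, against 30 at 5 to 10 Mb. No region in either window had 10 reads or fewer in total. Over all regions the libraries held 1675237, 1570251 and 2081455 reads with technical replicates summed, of which technical replicate 1 gave 273896 to 326440 reads. The regions next to centromeres took 28841, 26340 and 35773 of these reads (1.72%, 1.68% and 1.72%). In the summed libraries 33, 70 and 20 of the 2473 regions had no read. A region's level is given below as CPM (counts per 1e+06 of the reads that a library had in regions) per kb of region width.

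Regions were denser next to centromeres. With assembled sequence taken to start at 3 Mb, there were 68.7 regions per Mb over 36 Mb next to centromeres, against 53.9 per Mb over 90 Mb at 5 to 10 Mb. The ratio was 1.28 (95% Wilson interval 1.21 to 1.34, which covers counting error only). The region set is common to all samples, so density has no replicate, and it was therefore followed chromosome by chromosome. Density was higher next to the centromere on 13 of 18 chromosomes and lower on chromosomes 3, 9, 14, 15 and 17, with a median ratio of 1.13. The difference was widest on chromosome 7, with 117.5 regions per Mb against 29.2 at 5 to 10 Mb, a ratio of 4.02. Chromosome 8 followed with 95 regions per Mb against 34.4 at 5 to 10 Mb, a ratio of 2.76. Chromosomes 16, 5 and 12 had ratios of 1.93, 1.89 and 1.84. At the other end, chromosome 14 had 14.0 regions per Mb against 29.4 at 5 to 10 Mb, a ratio of 0.476. Chromosome 17 had 53.0 regions per Mb against 98.4 at 5 to 10 Mb, a ratio of 0.539. Without chromosome 7 the ratio over all the others was 1.19, and among regions of 200 bp or wider it was 1.51.

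**Figure D1:**
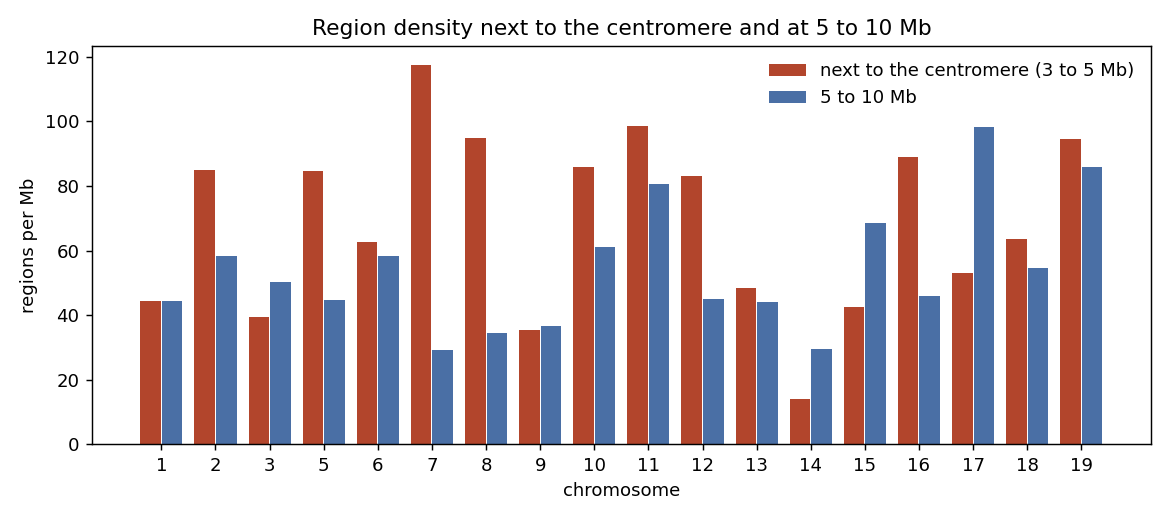
Regions per Mb on each of the 18 chromosomes, next to the centromere (red, 3 to 5 Mb) and at 5 to 10 Mb (blue). The red bar is higher on 13 chromosomes, with chromosomes 7 (117.5 against 29.2) and 8 (95 against 34.4) furthest apart, and lower on chromosomes 3, 9, 14, 15 and 17.

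Protein-coding genes were also denser next to centromeres. The windows held 418 genes of the RefSeq table, 11.6 per Mb, against 621 genes and 6.90 per Mb at 5 to 10 Mb. Gene density was higher next to the centromere on 14 of 18 chromosomes, and on 17 of 18 the gene density and the region density differed in the same direction. Across the 18 chromosomes the 2 ratios, on a log2 scale, had a Pearson r of 0.66 and a Spearman rho of 0.77, given as a description, since both are ratios of counts in the same windows. Among the 18 chromosomes, vomeronasal and olfactory receptor genes at 5 to 10 Mb lay on chromosome 7 alone. Chromosome 7, where region density differed most, is therefore a single case. Its window next to the centromere held 63 genes and 235 regions. Its 5 to 10 Mb window held 73 genes and 146 regions over the longer stretch, and 33 of those genes were vomeronasal receptor (Vmn), 8 olfactory receptor (Olfr) and 14 zinc finger (Zfp) genes. On chromosome 14, 30 of the 32 genes next to the centromere were predicted genes with Gm names, and 28 regions lay there with a widest gap of 415217 bp between neighbours. How far gene content accounts for the density of regions was not tested.

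A region lay within 5 kb of either end of 348 of the 418 genes next to centromeres (83.3%), against 483 of 621 (77.8%) at 5 to 10 Mb. Among genes with such a region, the median of the highest region value was 61.2 CPM per kb next to centromeres, against 59.4 at 5 to 10 Mb. Regions within 1 kb of a gene end numbered 249 next to centromeres (10.1%), against 337 (6.95%) at 5 to 10 Mb, with a background of 7.22% over all regions. Regions over 50 kb from any gene end numbered 748 (30.2%), against 1937 (39.9%) at 5 to 10 Mb and 36.2% over all regions.

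The level of the regions differed little between the windows. The mean region next to centromeres had 53.8, 51.5 and 54.0 CPM per kb in libraries 1, 2 and 3, against 51.5, 51.7 and 51.6 at 5 to 10 Mb. The averages were 53.1 ± 1.38 CPM per kb next to centromeres and 51.6 ± 0.100 at 5 to 10 Mb (SD, n = 3 libraries). The ratio was 1.04, 0.996 and 1.05, higher in 2 of 3 libraries (mean 1.03 ± 0.028, two-sided exact sign-flip permutation p = 0.5, where 0.25 is the smallest p that 3 libraries can give). The higher density therefore carried most of the difference in reads. Per Mb of window the regions next to centromeres took 478, 466 and 477 CPM, against 349, 353 and 350 CPM at 5 to 10 Mb. The averages were 474 ± 6.86 and 351 ± 1.84 CPM per Mb (SD, n = 3 libraries), a ratio of 1.35 ± 0.027, or 0.43 on the log2 scale. All 3 libraries were higher next to centromeres, with no overlap between the windows, and the exact permutation p was 0.25, the smallest it can give.

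Within the windows the regions were spread without a single peak of density. In steps of 250 kb from 3 Mb outwards, density was 55.1, 80.0, 74.2, 66.7, 74.7, 60.7, 71.6 and 66.7 regions per Mb. The following steps of 1 Mb, at 5 to 10 Mb, had 59.1, 55.4, 47.0, 57.4 and 50.4 regions per Mb. Of these 13 steps, the first lies nearest to the satellites and had fewer regions than the 7 that follow it up to 5 Mb. Counted from each chromosome's first region in place of 3 Mb, the density ratio was 1.31. Mean level over the 3 libraries was 53.6, 55.5, 54.4, 51.0, 51.5, 52.2, 53.6 and 52.5 CPM per kb in the steps of 250 kb. At the 5 Mb limit, the last region inside it on each of the 18 chromosomes had 35.9 to 63.2 CPM per kb (median 49.0), and the first region outside had 38 to 131 (median 50.4).

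**Figure D2:**
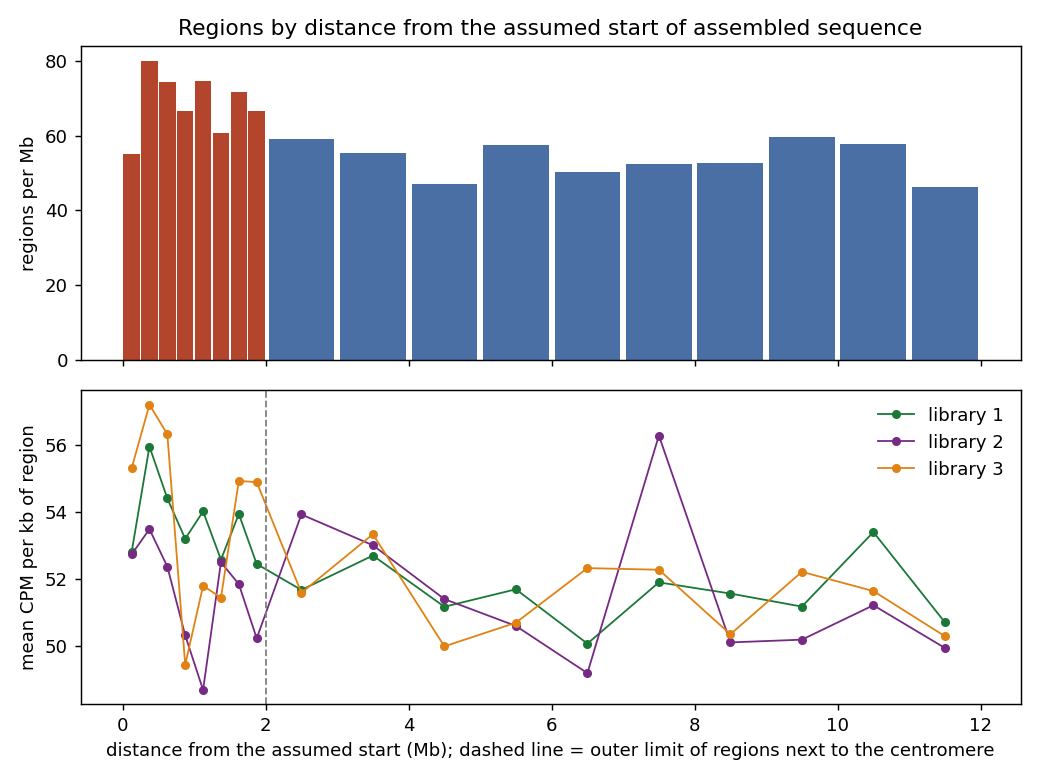
Upper panel, regions per Mb over all 18 chromosomes by distance from 3 Mb, in steps of 250 kb up to 5 Mb (red) and of 1 Mb beyond it (blue). Lower panel, mean CPM per kb of the same regions in each library, where the vertical axis does not start at 0; the red steps hold 55.1 to 80.0 regions per Mb, while the lines of the 3 libraries cross within a range of a few CPM per kb.

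By chromosome, the mean level was higher next to the centromere in all 3 libraries on 6 of 18 chromosomes (8, 9, 11, 13, 16 and 18). It was lower in all 3 on none, and mixed on 12. Chromosome 9 stood furthest apart. Its 71 regions averaged 63.3, 59.8 and 59.6 CPM per kb in libraries 1 to 3, against 51.2, 47.4 and 50.3 in its 183 regions at 5 to 10 Mb. The means were 60.9 ± 2.08 and 49.6 ± 2.01 CPM per kb (SD, n = 3 libraries), with no overlap, and the ratio was 1.23 ± 0.039. The medians over regions were closer, at 50.8 CPM per kb next to the centromere and 48.3 at 5 to 10 Mb. Without the highest region of chromosome 9 the mean next to the centromere was 56.5 ± 2.69. This window held 7 protein-coding genes, against 27 at 5 to 10 Mb, and its region density (35.5 per Mb against 36.6 at 5 to 10 Mb) was nearly the same. Chromosome 9 was picked from the 18 for its level, so its values are a description.

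Single regions were poorly shared between libraries, next to centromeres and elsewhere. Across the 2473 regions, levels in libraries 1 and 2, 1 and 3, and 2 and 3 had Pearson r of 0.07, -0.02 and 0.02 and Spearman rho of -0.16, -0.24 and -0.25. At 5 to 10 Mb the same pairs had r of -0.09, -0.21 and -0.11 and rho of -0.23, -0.32 and -0.25. Over all 151133 regions they had r of 0.07, 0.01 and 0.02 and rho of -0.22, -0.29 and -0.27. Next to centromeres, the 241 regions of 200 bp or wider had r of 0.56, 0.33 and 0.43, and the 1232 regions under 110 bp had -0.05, -0.14 and -0.12. These are descriptions across regions that share libraries and a common total. Regions that were high in every library are therefore described separately. A region was counted as high in a library when its CPM per kb was in the top 10% of all 151133 regions there.

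Of the 2473 regions next to centromeres, 34 were in the top 10% in all 3 libraries (1.37%), against 29 of 4849 at 5 to 10 Mb (0.598%). The background over all regions was 0.644%, so the share was 2.3 times that at 5 to 10 Mb and above the background. In single libraries the share in the top 10% averaged 10.9 ± 1.36% next to centromeres and 9.67 ± 0.253% at 5 to 10 Mb (SD, n = 3 libraries; exact permutation p = 0.5, higher in 2 of 3). The 34 regions lay on 13 of the 18 chromosomes, with 5 on chromosome 9 and 4 on chromosome 7. Leaving out chromosome 9 gave 29 regions against 29 at 5 to 10 Mb, a ratio of shares of 1.94. The ratio was 3.05 in technical replicate 1 alone (14 regions against 9) and 2.37 in technical replicate 2 alone (29 against 24). Without library 1, 2 or 3 it was 1.63, 2.50 or 1.93.

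The share was then split by distance from gene ends, in classes chosen after seeing the data, and the difference between classes was not tested. A region over 50 kb from any gene end may still lie inside a long gene. Within 1 kb of a gene end the share high in every library was 15 of 249 (6.02%) next to centromeres, against 19 of 337 (5.64%) at 5 to 10 Mb, with 5.14% over all such regions. More than 50 kb from any gene end it was 10 of 748 (1.34%, 95% Wilson interval 0.728 to 2.44%), against 4 of 1937 (0.207%, 0.0803 to 0.530%) at 5 to 10 Mb. Over all regions that far from gene ends it was 90 of 54686 (0.165%). Both Wilson intervals cover counting error only and treat regions as independent, although the 10 include a pair of close neighbours on chromosome 13. In technical replicate 2 alone, regions over 50 kb from a gene end gave 5 of 748 against 3 of 1937 at 5 to 10 Mb, a ratio of 4.32, and in technical replicate 1 alone 9 against 4, a ratio of 5.83. The mean level over all regions that far from gene ends was 52.2 ± 1.57 CPM per kb next to centromeres and 49.6 ± 1.43 at 5 to 10 Mb (SD, n = 3 libraries). Its ratio was 1.05 ± 0.019, higher in 3 of 3 libraries, with an exact permutation p of 0.25, the smallest it can give. Within 1 kb of a gene end the means were 64.5 ± 3.54 and 65.9 ± 7.77 CPM per kb, a ratio of 0.983 (exact permutation p = 1).

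**Figure D3:**
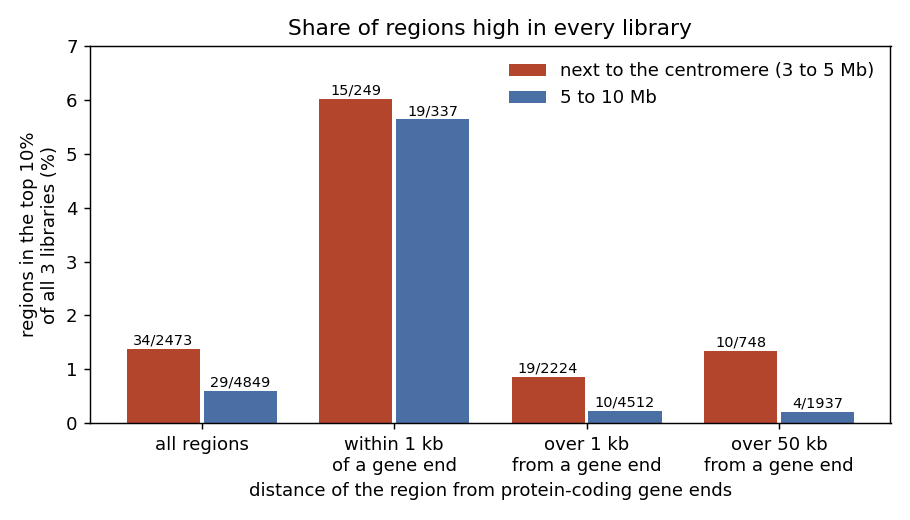
Share of regions in the top 10% of all 3 libraries next to centromeres (red) and at 5 to 10 Mb (blue), for all regions and by distance from protein-coding gene ends, with the counts above the bars. The bars are nearly level within 1 kb of a gene end (6.02% and 5.64%) and differ over 50 kb from one (1.34% and 0.207%).

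The 3 highest regions lay far from genes. The highest, chr9:3258593-3258687, had 330, 447 and 322 CPM per kb in libraries 1 to 3 (366 ± 70.0, SD, n = 3) and ranked 21 among all 151133 regions. It lay 76544 bp from Alkbh8, which encodes a methyltransferase that modifies tRNA. All 6 samples had reads in it, namely 36, 40 and 56 for technical replicate 2 against 16, 26 and 7 for technical replicate 1. The second, chr18:3012502-3012636, was the first region of chromosome 18 and had 347, 271 and 330 CPM per kb (316 ± 40.1). Its nearest gene was the vomeronasal receptor gene Vmn1r238, 109856 bp away. The third, chr17:4626171-4626595, had 193, 466 and 138 CPM per kb (266 ± 175) and lay 367702 bp from Arid1b, which encodes a subunit of the BAF chromatin remodelling complex. Library 2 was more than 2 times as high as either other library there, and without it the mean was 166 CPM per kb.

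The other 7 regions over 50 kb from a gene end were lower. On chromosome 13 a pair of neighbouring regions, chr13:3406750-3406897 and chr13:3406241-3406340, had 209 ± 33.7 and 128 ± 11.7 CPM per kb and lay 131178 and 131735 bp from Gdi2, a regulator of Rab GTPases. The lowest library of the higher one had 171 and that of the lower one 116 CPM per kb. On chromosome 3, whose window held a single protein-coding gene, chr3:3125132-3125242 had 146 ± 27.9 and chr3:3022505-3022649 had 102 ± 14.9 CPM per kb. They lay 382788 and 485381 bp from Hnf4g, a nuclear receptor gene. The region chr9:3611594-3611695 lay inside Gucy1a2, which encodes a subunit of soluble guanylate cyclase, 79245 bp from its start, and had 145 ± 39.7 CPM per kb. The remaining ones were chr16:3490593-3490687 with 131 ± 14.2 CPM per kb, 101711 bp from Olfr161, and chr5:4344583-4344679 with 124 ± 39.3, 146932 bp from Mterf1b. The spread between libraries was small at both chr16:3490593-3490687 (133, 115 and 143 CPM per kb) and the lower chromosome 13 region (139, 116 and 131).

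Between 1 and 50 kb from a gene end lay 9 of the 34 regions. The region chr8:4656715-4656816 had 183, 259 and 285 CPM per kb (242 ± 53.0) and lay 24143 bp from Zfp958, a zinc finger gene. On chromosome 9, chr9:4260387-4260507 had 99.5, 255 and 216 CPM per kb (190 ± 80.8), 34286 bp from Aasdhppt, which activates carrier proteins with a phosphopantetheine group. Library 1 was the low one there. A second region near Alkbh8, chr9:3306834-3306975, had 152 ± 33.4 CPM per kb at 28256 bp. A region inside Cdk6, the G1 cell cycle kinase, had 121 ± 20.8 CPM per kb, and one 1703 bp from Map3k8, a kinase of the MAP kinase pathway, had 123 ± 21.4. On chromosome 12 a region 6430 bp from Dtnb had 133, 147 and 125 CPM per kb (135 ± 11.6) and lay 14956 bp from a start of Dnmt3a, the de novo DNA methyltransferase. Fam107b, at a start inside the gene, had 259, 150 and 94.6 CPM per kb (168 ± 83.3), the widest spread among these 9. The other 2 were a region inside Grk2, a kinase of G protein-coupled receptors, with 110 ± 20.3 CPM per kb, and one inside an unnamed locus on chromosome 2, with 120 ± 20.8.

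**Figure D4:**
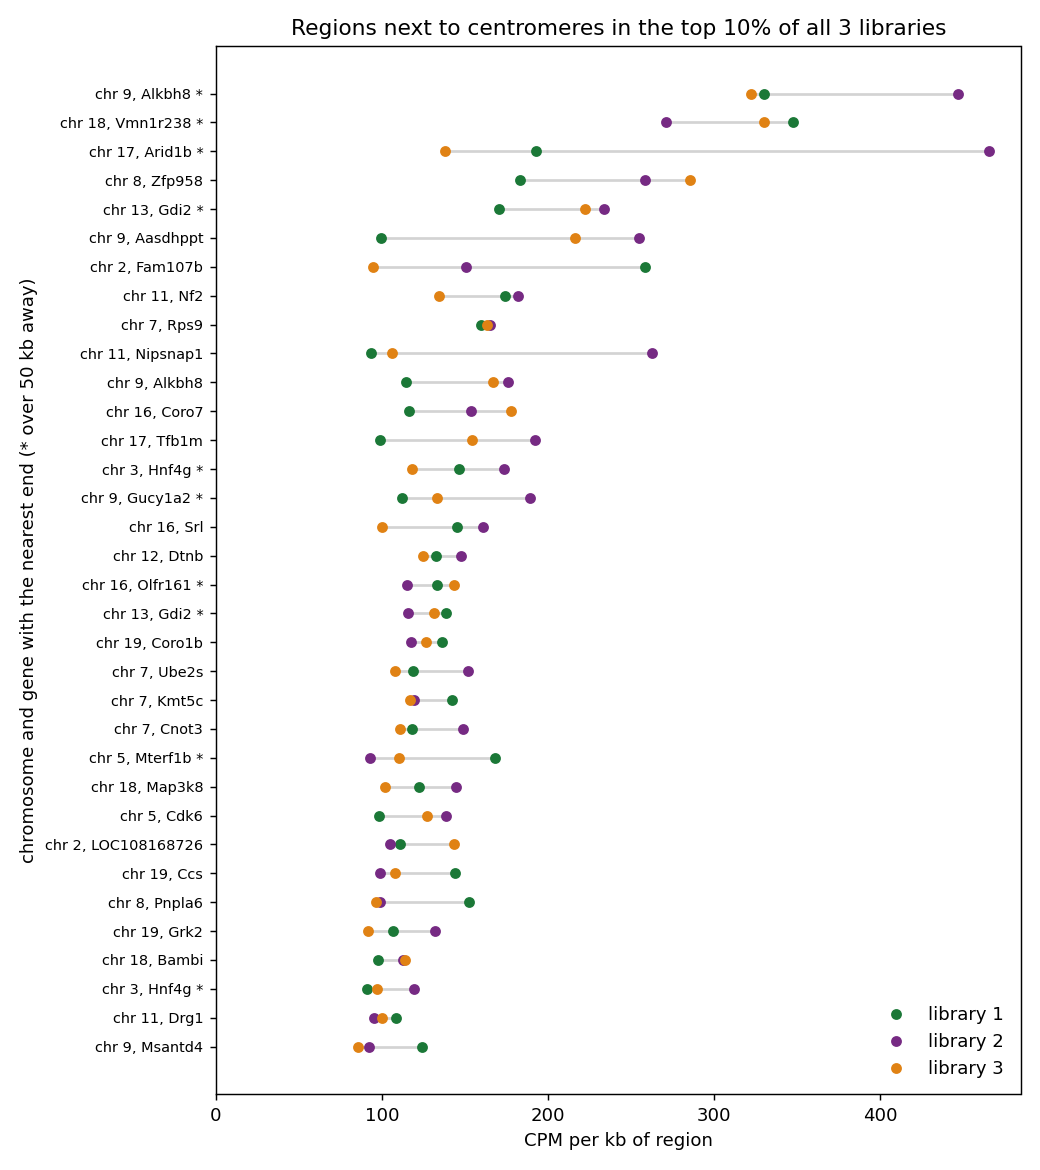
CPM per kb in each library (points, joined by a grey line) for the 34 regions next to centromeres that were in the top 10% of all 3 libraries, ordered by mean from the top and labelled by chromosome and nearest gene. A star marks a region over 50 kb from a gene end; 3 of the stars stand at the top (366, 316 and 266 CPM per kb), and Rps9 has the tightest points (160 to 165 CPM per kb).

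Within 1 kb of a gene end lay 15 of the 34 regions. Rps9, a protein of the small ribosomal subunit, had 160, 165 and 163 CPM per kb in libraries 1 to 3 (163 ± 2.53), from 30, 29 and 38 reads. Averaged over the libraries, its technical replicates gave nearly the same level, 163 CPM per kb in replicate 2 and 164 in replicate 1. Technical replicate 1 held only 3, 4 and 10 reads there in libraries 1 to 3, against 27, 25 and 28 in technical replicate 2. The match of the means therefore rests on few reads. Nf2, the merlin tumour suppressor, had 174, 182 and 135 CPM per kb (163 ± 25.4). Cnot3, a subunit of the CCR4-NOT complex that shortens mRNA tails, had 118, 149 and 111 CPM per kb (126 ± 20.1) in a region of 390 bp with 77, 91 and 90 reads, the best covered of the gene-start regions shown. Tfb1m, which methylates mitochondrial ribosomal RNA, had 98.5, 192 and 154 CPM per kb (148 ± 47.1). Sf3b6, a subunit of the splicing factor SF3B, had 126, 318 and 64.7 CPM per kb (170 ± 132). It passed the top 10% in 2 of 3 libraries, and without library 2 its mean was 95.5, so its rank rests on that library.

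Kmt5c, a histone H4 lysine methyltransferase that acts in heterochromatin, had 142, 119 and 117 CPM per kb (126 ± 14.1). This region lay 238 bp outside the gene, on the side of its start, and 273 bp from an annotated start site. A second region, over the start of Kmt5c, had 136, 191 and 78.9 CPM per kb (135 ± 56.1) and was in the top 10% of 2 libraries. Ube2s, the chain-elongating enzyme of the anaphase-promoting complex, had 119, 152 and 108 CPM per kb (126 ± 22.9). Both lie on chromosome 7, with Rps9 and Cnot3. The coronins Coro7 and Coro1b, which act on actin and on Golgi transport, had 149 ± 31.1 and 127 ± 9.42 CPM per kb on chromosomes 16 and 19. Srl had 135 ± 31.6, Ccs, the copper chaperone of superoxide dismutase, 117 ± 24.0, and Pnpla6, a phospholipase, 116 ± 31.8 CPM per kb. Bambi, a decoy receptor of the TGF-beta family, had 108 ± 8.98, Drg1, a GTPase, 101 ± 6.81, and Msantd4 100 ± 20.5 CPM per kb. Nipsnap1, a mitochondrial protein, had 93.1, 263 and 106 CPM per kb (154 ± 94.6), and without library 2 its mean was 99.4. Chromosomes 1, 6, 10, 14 and 15 held no region that was high in every library. Mrpl15, a mitochondrial ribosomal protein on chromosome 1, had 120 ± 31.9 CPM per kb, and Bet1, a transport vesicle protein on chromosome 6, had 90.2 ± 52.5. The highest regions of chromosomes 10 and 15 lay far from gene ends. That of chromosome 10 (93.5 ± 63.2) lay inside Esr1, 139702 bp from an end of the gene and 41533 bp from an annotated start. That of chromosome 15 (102 ± 79.0) lay 149985 bp from Ghr. On chromosome 14 the highest, near the predicted gene Gm2897, had 66.0 ± 14.6 CPM per kb and was in the top 10% of no library.

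For the regions high in every library, the level in the 2 technical replicates was set out by distance from gene ends. The difference between these classes was not tested. Of the 10 regions high in every library and over 50 kb from a gene end, 3 had the higher CPM per kb in technical replicate 2 and 7 in technical replicate 1. Their medians were 140 CPM per kb in replicate 2 and 249 in replicate 1. Of the 15 within 1 kb of a gene end, 11 were higher in technical replicate 2 and 4 in technical replicate 1, with medians of 133 and 97.1 CPM per kb. These are descriptions of regions chosen by their level in the sum of both. The highest region, on chromosome 9, had 315 CPM per kb in replicate 2 and 602 in replicate 1, and the region inside Gucy1a2 had 73.4 and 493.

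The replicates were compared with edgeR's quasi-likelihood test over the whole region set. Its filter on low counts let 501 of the 2473 regions into the test, among 27452 in all, so most regions next to centromeres were too thinly covered to be tested. Between technical replicate 2 and technical replicate 1, with the library as a block, 2 of the 501 were called at an adjusted p under 0.05. The background was 71 of 27452 (0.259%), with 0.138% higher and 0.12% lower in technical replicate 2, and 2 of 830 were called at 5 to 10 Mb. At an unadjusted p under 0.05 there were 41 of 501, against 55 of 830 at 5 to 10 Mb and 1884 of 27452 overall. The region chr17:4626171-4626595 had 71, 142 and 58 reads in technical replicate 2, against 66, 168 and 64 in technical replicate 1. Over all regions, replicate 2 held several times as many reads as replicate 1. The chromosome 17 region was lower in replicate 2 by edgeR's test (log2 fold change -1.74, SE 0.22, adjusted p = 1.14e-11). It was not called without library 2 (adjusted p = 0.852) or without library 3 (adjusted p = 0.0968). The region chr19:4231784-4232044 at Pold4, a subunit of DNA polymerase delta, had 30, 26 and 53 reads in technical replicate 2, against 0, 0 and 4 in technical replicate 1. It was higher in replicate 2 (log2 fold change 3.22, SE 0.83, edgeR adjusted p = 0.0430), and no other setting tried called it.

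When the 3 libraries were compared in a fit that also held technical replicate, edgeR called 1 of the 501 regions. This was chr17:4626171-4626595 again (adjusted p = 2.21e-04), which was highest in library 2 in both technical replicates. The background was 4 of 27452 (0.0146%), with 0 of 830 at 5 to 10 Mb. At an unadjusted p under 0.05 there were 31 of 501, against 29 of 830 at 5 to 10 Mb and 1193 of 27452 overall. It was not called without the term for technical replicate. Of the 34 regions high in every library, 33 entered the test, and apart from this one none was called between libraries.

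**Figure D5:**
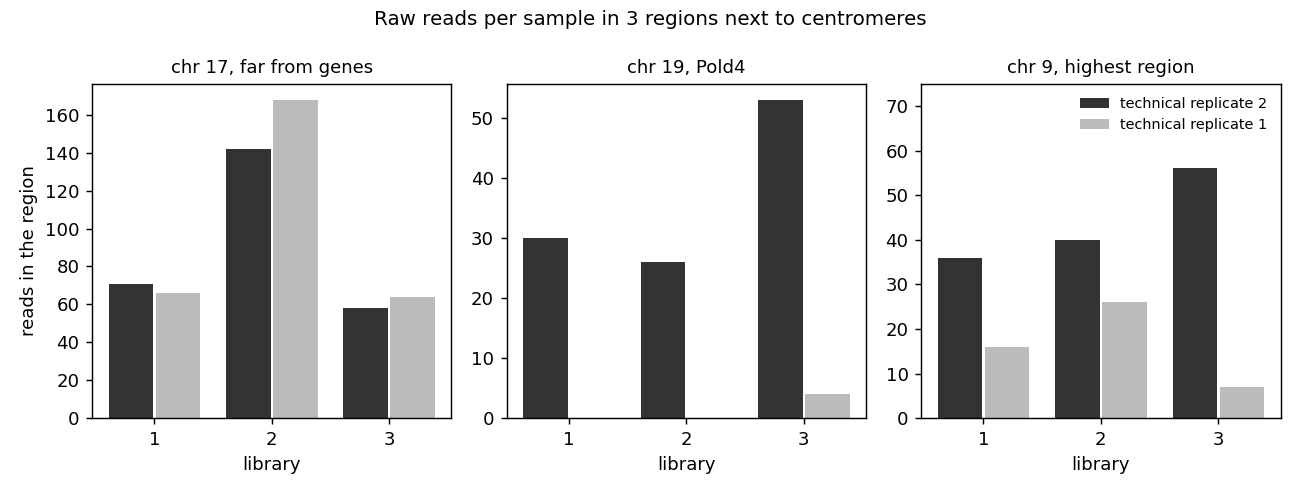
Raw reads per library in technical replicate 2 (black) and technical replicate 1 (grey), not scaled for depth, in the region far from genes on chromosome 17, the Pold4 region on chromosome 19 and the highest region, on chromosome 9. The chromosome 17 bars are about level between replicates (142 against 168 in library 2), while Pold4 reads came almost only from technical replicate 2 (53 against 4 in library 3).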

How the data were processed

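The 6 anti-IKZF2 samples were analysed, grouped by their titles. Their deposited tables give raw read counts, not normalized, over 1 region set common to all samples, per the file headers. Per the submitters' processing notes the build is mm10, and the tools include MACS2 and Bowtie2 2.3.3.1; what each tool did, the threshold for peaks or the samples used to call them is not given in the sources used here. Samples with the control antibody (4) were left out. The totals are reads in regions, not sequencing depth. Many counts were even, as both mates of a pair would give, so the reads in a region may not be independent. The edgeR tests took the counts as they were, and what this did to them was not tested. The Wilson intervals count regions, not reads. Over all regions, 84.7 to 87.4% of counts of 10 or more were even in technical replicate 1. In technical replicate 2 that share was 58.0 to 61.2%.

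Technical replicates were summed to 3 libraries. A region's level was its CPM per kb, which favours narrow regions. Windows were taken as 3 to 5 Mb and 5 to 10 Mb, the 3 Mb start being an assumption, since no genome was used. Levels were compared by a two-sided exact sign-flip permutation test over libraries. Counts were tested on all regions with edgeR 4.0.16 in R 4.3.3 (filterByExpr on the design, TMM, glmQLFit, glmQLFTest, Benjamini-Hochberg, adjusted p under 0.05), with DESeq2 1.42.0 as an alternative. The labels make both technical replicates of a number parts of 1 CUT&RUN, so the library was a block; same-library deviations correlated at 0.23 to 0.25, and those of different libraries at -0.14 to -0.09. The scripts were tested on simulated data.

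Gene ends came from the protein-coding genes of a RefSeq table of GRCm38.p6, whose coordinates match mm10 (113 genes that the table places on other scaffolds were left out), and promoters from RefSeq's table of the same build, which is incomplete. Named regions were the 10 highest, the highest of each chromosome, those in the top 10% of all 3 libraries and those called by edgeR. The window, the regions and the lists were chosen with earlier results of these data known. Alternatives were other normalizations, filters, widths and windows, single technical replicates, and leaving out libraries or chromosomes. Windows, levels and figures were computed in Python 3.11.15 (matplotlib 3.10.9, scipy 1.17.1, pandas 2.3.3, numpy 2.4.6).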

Additional observations from a re-analysis of the deposited data

How the results depend on the processing

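The ratio of mean level was 1.02 to 1.05 under its 18 alternatives, that of reads per Mb 1.25 to 1.60 under 14, and that of the share in the top 10% of a library 1.06 to 1.5 under 14, all above 1. The density ratio was 1.23 to 1.31 under 6 alternatives, 1.51 among regions of 200 bp or wider and 1.19 without chromosome 7. The ratio of shares high in all 3 libraries was 1.63 to 3.70 under 13 alternatives. Chosen after seeing the data, distance classes gave 3.85 over 1 kb from a gene end, 1.07 within 1 kb and 6.47 over 50 kb, the last being 5.83 in technical replicate 1 alone and 4.32 in technical replicate 2 alone. The difference between the far and near classes was not tested. Between technical replicates, edgeR called 2 regions next to centromeres; it called 1 with no filter on low counts, 1 with no replicate block, where the pairing by library is dropped, and 0 to 1 when a library was left out. With total reads in place of TMM and with DESeq2 the count was 2, but the region inside Gucy1a2 took the place of Pold4 (adjusted p = 0.00846 and 0.0268). Over all regions the calls were 71, of which 38 were higher in technical replicate 2, against 55 with 9 higher with total reads and 55 with 14 higher with DESeq2; no replicate block gave 50, no filter 46, and leaving out library 1, 2 or 3 gave 18, 0 and 8. Between libraries 1 region was called, and 0 with no term for technical replicate (30 at an unadjusted p under 0.05). For the 41 named regions, 216 of 246 alternative means stayed within 1 SD and 30 moved further. Of these 30, 26 were in technical replicate 1 alone and 4 in technical replicate 2 alone. Leaving out 1 of 3 libraries cannot move a mean by 1 SD, so this measure could not show a shift there. By fold change, 6 means without 1 library lay more than 1.5-fold away. Low counts per region, no control antibody correction and 3 libraries limit all single-region statements.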
